A study of Mus musculus with 6 samples.

Results

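The genes described here are 31 transcription factors that pattern the limbs, trunk and face outside the Hox clusters, chosen by name from T-box, homeobox, paired box, GATA, Osr and Zic families, among 55471 Ensembl identifiers in a table of RPKM values (reads per kilobase of gene divided by the mapped reads of that library). All 31 were matched by symbol. The values come from polyA RNA of mouse endosteal mesenchymal stromal cells, stromal cells of the inner bone surface, on the C57BL/6J strain. Both groups carry the floxed allele: 3 libraries are labelled Bap1 WT (Wild Type, Bap1fl/fl) and 3 are labelled Bap1 cKO (Prx1-cre;Bap1fl/fl). The Prx1 promoter drives Cre in limb bud mesenchyme and its descendants. The labels give no age or sex and leave it unsaid whether replicates are different animals, and the spread behind each p-value may therefore be technical.

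These factors bind DNA and keep a record of where a mesenchymal cell arose. Tbx5 marks the forelimb field, Pitx1 and Tbx4 the hindlimb field, Meis1, Meis2 and Shox2 the proximal limb, Lmx1b dorsal mesenchyme and En1 ventral ectoderm. Prrx1 and Prrx2 are expressed through limb and facial mesenchyme, and Prrx1 gave its older name, Prx1, to the Cre driver used here. Bap1 is a deubiquitinase that acts on histone H2A, the mark placed by Polycomb complexes, and many patterning genes are known Polycomb targets.

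The 2 groups stood well apart over the 12223 genes that averaged 1 RPKM or more. Across these genes, which are not independent replicates, Pearson's r of log2(RPKM + 1) lay at 0.987 to 0.988 within WT, at 0.948 to 0.974 within cKO and at 0.757 to 0.824 between groups. The library labelled cKO replicate 3 had the 3 highest of the between-group values, 0.822 to 0.824, and the largest estimated depth, 22.2 megafragments against 13.1 to 15.1 megafragments in the other 5. Bap1 itself was at 22.8, 22.72 and 24.01 RPKM in WT replicates 1 to 3 and at 28.27, 25.16 and 22.99 RPKM in cKO replicates 1 to 3, and a value summed over the whole gene cannot check a deletion of some exons. The directions below are therefore those of the libraries labelled cKO.

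The labelled cell type was checked against markers. All 11 stromal markers, among them Pdgfrb, Col1a1 and Cxcl12, were at 1 RPKM or more in every WT library, and 6 of the 11 were so in every cKO library, with summed levels of 4344 to 4562 RPKM in WT and 77.1 to 212 RPKM in cKO. By the limma test described below, 10 of the 11 were called lower in cKO, as were 26.5% of all tested genes. Thy1, Vcam1 and Eng, with cKO means of 0.0733, 0.387 and 0.723 RPKM, reached the test's minimum through their WT libraries alone. These markers could then hardly be called anything but lower. Pdgfra was called higher, as were 34.7% of all tested genes. It stood at 7.51, 6.86 and 8.31 RPKM in WT and 19.56, 9.72 and 11.06 RPKM in cKO (limma adjusted p = 0.0451). Of 17 kidney epithelium markers, 2 were at 1 RPKM or more in every WT library and 5 in every cKO library. The summed level was 21.2 to 22 RPKM in WT and 1847 to 7021 RPKM in cKO, where nearly all of it was S100g, Klk1 and Pax8. Umod and Calb1 were listed at 0 in all 6 libraries, and the epithelial adhesion genes Cdh1 and Epcam reached at most 0.12 and 0.29 RPKM. None of 8 blood cell, 5 endothelial, 5 skeletal muscle or 4 glial markers was at 1 RPKM or more in all libraries of a group. Of 6 osteoblast markers 2 were so in WT and 1 in cKO, and of 5 chondrocyte markers 1 and 2. These marker levels move with the genotype label in every comparison below, and their part in the results was not tested. In bulk RNA, fewer cells of a type and less RNA per cell cannot be told apart.

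The promoters of 4 members are shown because the members behaved in different ways: Tbx18 and Shox2 fell, Msx1 did not pass the test, and Lhx2 was listed at 0 in every WT library. None is shown for a member that rose. Each line is the 250 bases before the RefSeq gene start, 5′ to 3′ on the gene's strand (GRCm38.p6), and capitals mark GGGCGG (a GC box), CCAAT and TAATTA (a homeodomain core) on either strand. The windows are chr9:87731261-87731510 on the minus strand for Tbx18, chr3:66981772-66982021 on the minus strand for Shox2, chr5:37824586-37824835 on the minus strand for Msx1 and chr2:38339031-38339280 on the plus strand for Lhx2.
Tbx18: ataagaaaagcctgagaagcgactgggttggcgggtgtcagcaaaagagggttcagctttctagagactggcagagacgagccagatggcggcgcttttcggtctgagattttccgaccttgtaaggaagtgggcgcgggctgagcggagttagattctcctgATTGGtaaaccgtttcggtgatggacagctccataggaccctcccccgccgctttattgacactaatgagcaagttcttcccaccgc
Shox2: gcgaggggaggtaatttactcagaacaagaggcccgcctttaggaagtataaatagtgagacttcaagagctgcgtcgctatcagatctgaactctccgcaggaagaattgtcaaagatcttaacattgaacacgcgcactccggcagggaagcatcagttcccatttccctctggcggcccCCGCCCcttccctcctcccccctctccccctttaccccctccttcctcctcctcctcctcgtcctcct
Msx1: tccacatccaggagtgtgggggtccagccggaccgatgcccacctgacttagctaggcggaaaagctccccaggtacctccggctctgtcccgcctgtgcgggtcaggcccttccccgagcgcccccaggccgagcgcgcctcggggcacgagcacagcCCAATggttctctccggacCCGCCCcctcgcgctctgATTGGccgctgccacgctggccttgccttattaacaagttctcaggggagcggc
Lhx2: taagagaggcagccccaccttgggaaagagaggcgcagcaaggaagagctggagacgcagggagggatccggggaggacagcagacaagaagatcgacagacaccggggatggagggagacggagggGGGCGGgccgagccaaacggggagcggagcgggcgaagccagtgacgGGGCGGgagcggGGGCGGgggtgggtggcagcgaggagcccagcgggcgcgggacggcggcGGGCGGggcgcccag

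RefSeq windows of 19 members (20 windows) were used, and Tbx15 and Pitx1 were among the members without one. Chromosome 18, where Gata6 lies, was left out for the members but not for the set of all windows. The members' windows were rich in the dinucleotide CG, with a median of 17.5 in 250 bases against 6 over all 32851 windows. Tbx18 had 15, Shox2 11, Msx1 20 and the printed Lhx2 window 25. The window of Prrx1 had only 4, and those of Msx2 and Emx2 had 16 and 24. GGGCGG stood in 11 of the 20 windows (55%) against 32.7% of all windows, CCAAT in 11 (55%) against 33.8%, and TAATTA in 2 (10%), those of Msx2 and Prrx1, against 4.84%. Among the 6 members that fell and have a window, the CG count ran from 7 to 24, and among the 10 members below 1 RPKM that have one, from 4 to 40, so the ranges overlapped. These matches describe letters only.

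A member is called on in a group when all 3 libraries were at 1 RPKM or more. By that rule 12 of the 31 were on in the WT libraries, where 48.2% of protein-coding genes were, and 11 were on in the cKO libraries, where 46.9% were. The same 11 were on in both groups: Prrx1, Prrx2, Shox2, Tbx15, Tbx18, Tbx3, Pitx1, Meis1, Msx1, Msx2 and Emx2. Meis2 was on in WT only, as were 4.17% of protein-coding genes, because 1 cKO library stood at 0.91 RPKM. No member was on in cKO only, against 2.88% of protein-coding genes. Tbx5, Alx1, Barx1, Pax1 and Zic1 were listed at 0 in all 6 libraries, as were 26.9% of protein-coding genes. The other 14 lay in between. From depths estimated on low values, 3 fragments per kilobase would read as 0.135 to 0.229 RPKM. That floor covers counting error only.

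**Figure D1:**
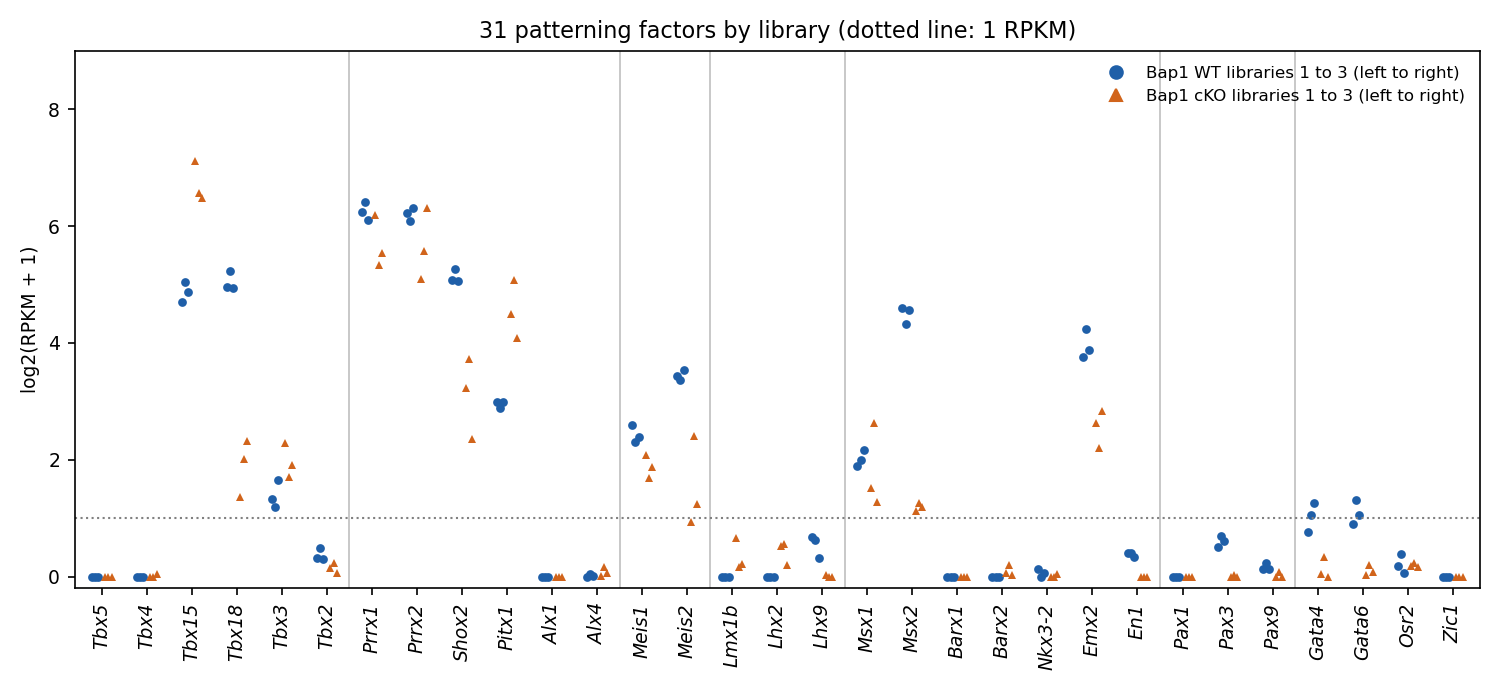
Level of each of the 31 factors in each library, as log2(RPKM + 1), ordered by family (grey lines divide T-box, paired-type, TALE, LIM, Msx to En, paired box and zinc finger genes). Circles are the 3 Bap1 WT libraries and triangles the 3 Bap1 cKO libraries, and the dotted line is 1 RPKM. Tbx15 and Pitx1 have all triangles above all circles, while Tbx18, Shox2, Meis2, Msx2 and Emx2 have them below.

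Differences were tested with limma on log2(RPKM + 1) over all genes that averaged 1 RPKM or more, and a gene was called when its Benjamini-Hochberg adjusted p was under 0.05. Only 12 of the 31 members reached that mean, and each of the 12 had a mean of at least 1 RPKM in both groups. Of the 12, 3 were called higher in the cKO libraries (Tbx15, Pitx1 and Tbx3), where 34.7% of all tested genes were, and 6 were called lower (Msx2, Tbx18, Shox2, Meis2, Emx2 and Meis1), where 26.5% were. Prrx1, Prrx2 and Msx1 did not pass. The 9 of 12 called stand beside 61.2% of all tested genes, so a call alone does not set these factors apart. Their median absolute log2 difference was 1.5, beside 0.53 over all tested genes, and their median difference was −0.56, beside 0.09. With 3 libraries a side the smallest exact permutation p is 0.1, and every call depends on the spread that limma shares across genes.

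**Figure D2:**
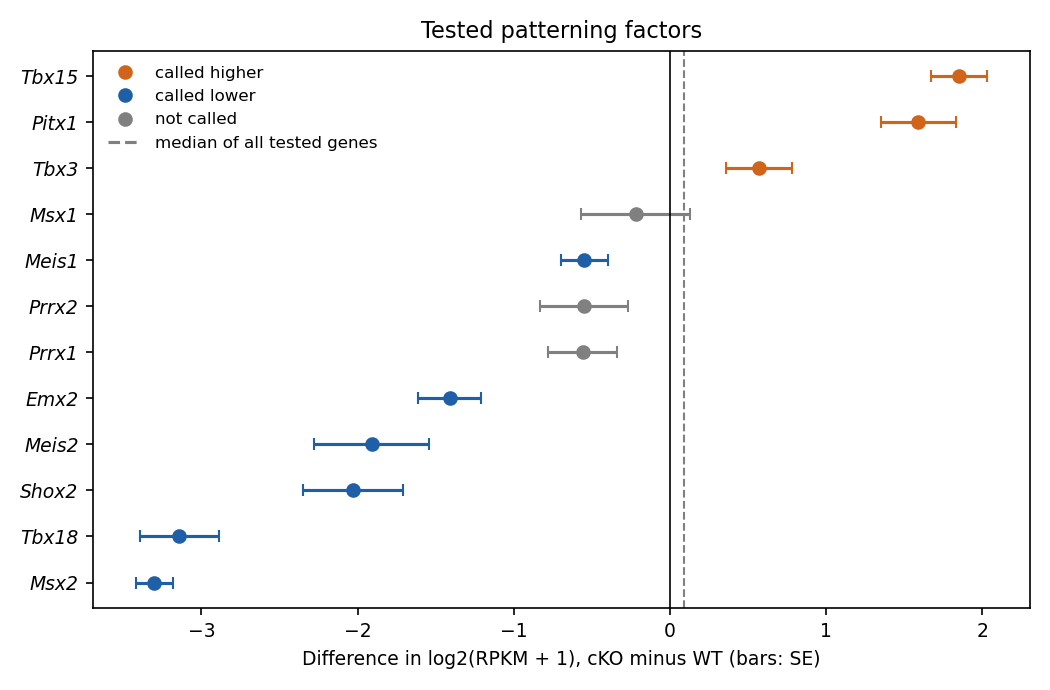
Difference in log2(RPKM + 1), cKO minus WT, with its SE, for the 12 tested factors. The dashed line is the median of all 12223 tested genes (0.09). Msx2 and Tbx18 lie beyond −3, Tbx15 and Pitx1 beyond 1.5, and the bar of Msx1 crosses 0.

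The T-box factors split. Tbx15, which shapes the limb girdles and dorsal skin (chromosome 3, 99240381 to 99354259, GRCm38), stood at 25.02, 32.16 and 28.35 RPKM in WT and at 137.67, 93.84 and 88.49 RPKM in cKO. All 3 cKO values lay above all 3 WT values, as in 39.2% of tested genes. The mean ± SD (n = 3) was 28.5 ± 3.57 RPKM in WT and 107 ± 27 RPKM in cKO. Tbx15 rose 3.74-fold (log2 difference ± SE 1.85 ± 0.18, limma adjusted p = 0.000246) and was the most abundant of the 31 in cKO. By its mean it moved from above 84.4% of protein-coding genes to above 95.9% of them.

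Tbx18, a factor of the ureter, heart and trunk mesenchyme (chromosome 9, 87702800 to 87731260), went the other way. It stood at 30.24, 36.57 and 29.86 RPKM in WT and at 1.58, 3.05 and 4.02 RPKM in cKO. No cKO value came near the lowest WT value, and 29.8% of tested genes likewise had all cKO values below all WT values. Tbx18 fell 11.2-fold to 2.88 ± 1.23 RPKM, with a log2 difference of −3.14 ± 0.25 and a limma adjusted p of 9.5e-05, from above 86.1% of protein-coding genes to above 56.1%.

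Tbx15 and Tbx18 were thus near-equal in the WT libraries, where the ratio of their RPKM within a library was 0.827 to 0.949. In the cKO libraries the ratio was 87.1, 30.8 and 22. Such a ratio is free of any scaling between libraries.

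Tbx3, which patterns the posterior limb and mammary region, was at 1.52, 1.3 and 2.16 RPKM in WT and 3.9, 2.25 and 2.78 RPKM in cKO. The lowest cKO library was just above the highest WT library. Its rise of 1.79-fold (log2 difference 0.57 ± 0.21, limma adjusted p = 0.0484) was the least secure call. It was lost in 11 of 18 alternatives, whose adjusted p ran from 0.0309 to 0.159, among them leaving out WT replicate 1 (0.129) or 2 (0.145) or cKO replicate 1 (0.13) or 3 (0.0647). Centring each chromosome, which took 0.19 from the genes of chromosome 5, left a log2 difference of 0.38 with an adjusted p of 0.159.

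Tbx5, the neighbour of Tbx3 on chromosome 5, was listed at 0 throughout. The pair on chromosome 11, Tbx2 and Tbx4, was low as well. Tbx2, a repressor close to Tbx3 in sequence and role, was at 0.25, 0.4 and 0.24 RPKM in WT and 0.11, 0.18 and 0.04 in cKO, and Tbx4 was above 0 in a single library, cKO replicate 3, at 0.03 RPKM. So neither limb-type T-box gene, Tbx5 or Tbx4, was on in any library.

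Pitx1, the homeobox factor that specifies the hindlimb (chromosome 13, 55825051 to 55836192), was on in every library all the same. It stood at 6.96, 6.42 and 6.91 RPKM in WT and at 21.44, 32.73 and 16.01 RPKM in cKO. The groups did not overlap, and the cKO libraries differed among themselves by more than the WT mean. Pitx1 rose 3.46-fold to 23.4 ± 8.53 RPKM, a log2 difference of 1.59 ± 0.24 with a limma adjusted p of 0.0014.

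Prrx1 and Prrx2, the paired-related factors of limb mesenchyme, were the most abundant members in the WT libraries, with overlapping ranges. Prrx1 was at 75.02, 83.75 and 68.16 RPKM in WT and at 72.24, 39.46 and 45.51 RPKM in cKO. A single cKO library, replicate 1, lay within the WT range and the other two lay below it. The log2 difference was −0.56 ± 0.22, with a limma adjusted p of 0.0628, and without cKO replicate 1 the difference was −0.82 with an adjusted p of 0.00299. Scaling by median of ratios gave −0.67 with an adjusted p of 0.0382. In the other 17 of 19 alternatives Prrx1 did not pass, and without cKO replicate 2 the difference was −0.39.

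Prrx2 was at 73.82, 66.65 and 78.24 RPKM in WT and at 33.3, 46.51 and 77.94 RPKM in cKO. Here it was cKO replicate 3 that lay within the WT range. The log2 difference was −0.55 ± 0.28 (limma adjusted p = 0.138), and −0.87 with an adjusted p of 0.00289 without that library. Sample weights gave −0.77 and 0.0101. In the other 17 of 19 alternatives Prrx2 did not pass, and without cKO replicate 1 the difference was −0.27. Both genes stayed above 90.9% of protein-coding genes in the cKO libraries by their mean.

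Shox2, which builds the proximal limb bones (chromosome 3, 66971727 to 66981771), stood at 32.76, 37.47 and 32.49 RPKM in WT and at 8.41, 12.16 and 4.11 RPKM in cKO. Every cKO library was far below the lowest WT library. Shox2 fell 4.16-fold to 8.23 ± 4.03 RPKM, a log2 difference of −2.03 ± 0.32 with a limma adjusted p of 0.00187. The other paired-type members are known for the anterior limb and the face: Alx4 reached at most 0.12 RPKM in any library, and Alx1 was listed at 0.

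The TALE factors Meis1 and Meis2, cofactors of Hox proteins that mark the proximal limb, both fell. Meis2 (chromosome 2, 115863064 to 116065839) was at 9.77, 9.28 and 10.57 RPKM in WT and at 0.91, 4.32 and 1.37 RPKM in cKO. The cKO libraries were uneven, with replicate 2 several times the others. Meis2 fell 4.49-fold, and 8.66-fold without cKO replicate 2, with a log2 difference of −1.91 ± 0.37 and a limma adjusted p of 0.0041. Meis1 was at 5.08, 3.93 and 4.26 RPKM in WT and 3.24, 2.22 and 2.68 RPKM in cKO, and fell 1.63-fold (log2 difference −0.55 ± 0.15, limma adjusted p = 0.0191). The groups were separate but close, and the call was lost without WT replicate 1 (0.0747) or 3 (0.0546).

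Msx2, a homeobox target of BMP signalling in limb and bone (chromosome 13, 53466884 to 53473074), had the largest log2 difference of the 12 tested members. With each chromosome centred (−3.42 against −3.48) or without cKO replicate 3 (−3.3 against −3.36), that of Tbx18 was larger. Msx2 was at 23.08, 19.07 and 22.52 RPKM in WT and at 1.17, 1.4 and 1.3 RPKM in cKO. The cKO libraries were tight for this gene, with an SD of 0.115 RPKM. Msx2 fell 16.7-fold, a log2 difference of −3.3 ± 0.12 with a limma adjusted p of 4.34e-06, and the fold stayed between 16 and 17.7 when any library was left out.

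Its paralog Msx1 was at 2.74, 3 and 3.51 RPKM in WT and at 1.88, 5.19 and 1.42 RPKM in cKO. The cKO libraries lay on both sides of the WT libraries. The log2 difference was −0.22 ± 0.35 with a limma adjusted p of 0.618. It was −0.62 with an adjusted p of 0.02 without cKO replicate 2, and 0.05 with an adjusted p of 0.894 without cKO replicate 3. Within a library the ratio of Msx1 to Msx2 was 0.119 to 0.157 in WT and 1.09 to 3.71 in cKO, so the order of the paralogs was opposite in the 2 groups.

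**Figure D3:**
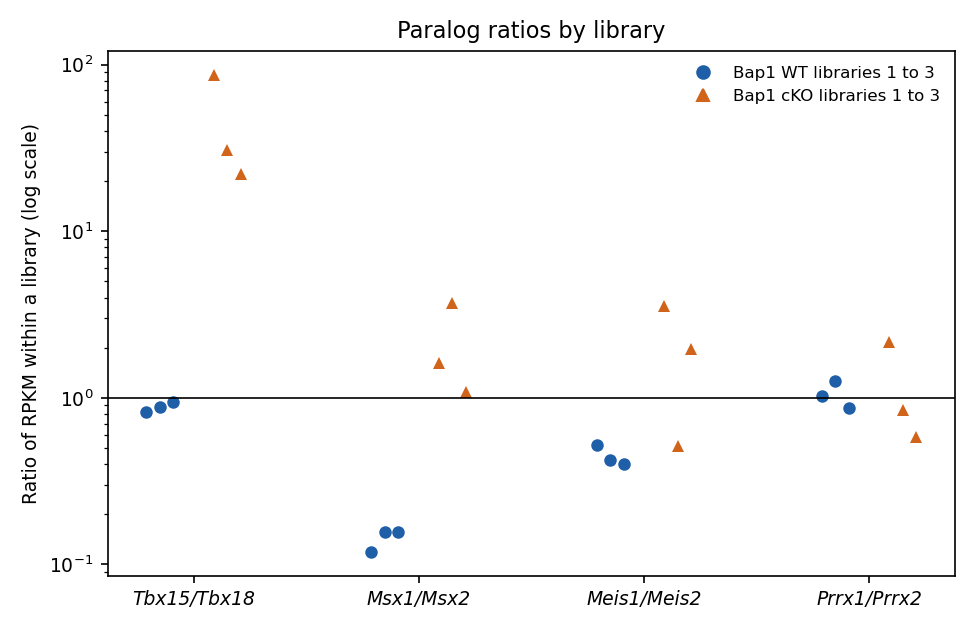
Ratio of the RPKM of 2 paralogs within each library, on a log axis, for Tbx15/Tbx18, Msx1/Msx2, Meis1/Meis2 and Prrx1/Prrx2. Circles are Bap1 WT and triangles Bap1 cKO libraries. The groups are separate for the first pair and the second, while Meis1/Meis2 (0.403 to 0.52 in WT, 0.514 to 3.56 in cKO) and Prrx1/Prrx2 (0.871 to 1.26 and 0.584 to 2.17) overlap.

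Emx2, a homeobox factor of the scapula, kidney and forebrain (chromosome 19, 59458372 to 59465357), was at 12.52, 17.98 and 13.77 RPKM in WT and at 5.18, 3.58 and 6.14 RPKM in cKO. The groups did not overlap. Emx2 fell 2.97-fold, a log2 difference of −1.41 ± 0.2 with a limma adjusted p of 0.00123. Its antisense partner Emx2os, which overlaps it on the other strand, was at 2.41, 2.97 and 2.59 RPKM in WT and 0.35, 0.47 and 0.44 RPKM in cKO (log2 difference −1.36 ± 0.14, limma adjusted p = 0.000276). Emx2os reached the test's minimum through its WT libraries alone. The labels name a stranded library kit but not whether strand was used in counting, so reads of the 2 genes may not be fully separated. Emx2os and the other nearby genes named were chosen after their values were seen.

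Of the 19 members under the test's minimum, 17 were below 1 RPKM in every library, and 14 were above 0 somewhere. In 7 of these 14 all cKO values were below all WT values (Gata4, Gata6, Pax3, Lhx9, En1, Tbx2 and Pax9), where 16.9% of untested protein-coding genes above 0 were, and in 3 they were above (Lmx1b, Lhx2 and Barx2), where 18.5% were. The values are small, so they are given as levels and no fold is computed.

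Gata4 and Gata6, zinc finger factors of heart and endoderm that also act in limb bud mesenchyme, were the highest of these. Gata4 was at 0.69, 1.07 and 1.39 RPKM in WT and at 0.03, 0.26 and 0 RPKM in cKO. Gata6 was at 0.87, 1.49 and 1.09 RPKM in WT and at 0.02, 0.15 and 0.06 RPKM in cKO. Both were above the floor of 3 fragments per kilobase in every WT library, Gata4 was above it in 1 cKO library and Gata6 in none. With the minimum mean lowered to 0.1 RPKM the log2 difference was −0.90 ± 0.16 for Gata4 and −0.99 ± 0.13 for Gata6, with limma adjusted p-values of 0.00432 and 0.0012. Both reached that minimum through their WT libraries alone, so these p-values are no support for a fall.

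Pax3, a factor of neural crest and muscle precursors, was at 0.42, 0.63 and 0.52 RPKM in WT and at 0, 0.02 and 0 RPKM in cKO. En1 was at 0.33, 0.33 and 0.27 RPKM in WT and listed at 0 in every cKO library, and the LIM factor Lhx9 was at 0.61, 0.55 and 0.25 RPKM in WT and at 0.02, 0 and 0 in cKO. With the lower minimum these 3 also passed (limma adjusted p of 0.002, 0.00607 and 0.0092). That brings the members called lower to 11 of 21 tested, where 22.8% of all genes tested at that minimum were. These 3, Gata4 and Gata6 reached the minimum through their WT libraries alone, and could then hardly be called anything but lower. The count is therefore no support for a fall.

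In the other direction, Lhx2 was listed at 0 in the WT libraries and at 0.44, 0.47 and 0.15 RPKM in cKO, and Lmx1b at 0 and at 0.59, 0.12 and 0.16 RPKM. Both are LIM factors, as is Lhx9, which was above 0 mainly in WT. At the lower minimum Lhx2 passed (limma adjusted p = 0.0213) and Lmx1b did not (0.0882). Lhx2 and Lmx1b reached that minimum through their cKO libraries alone. Barx2 was listed at 0 in WT and reached at most 0.15 RPKM. Pax9 and Nkx3-2, factors of the sclerotome that gives rise to vertebrae, reached at most 0.17 and 0.09 RPKM in any library. Osr2, a factor of the palate and joints, was at 0.13, 0.31 and 0.04 RPKM in WT and at 0.14, 0.18 and 0.12 in cKO, with overlapping values.

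**Figure D4:**
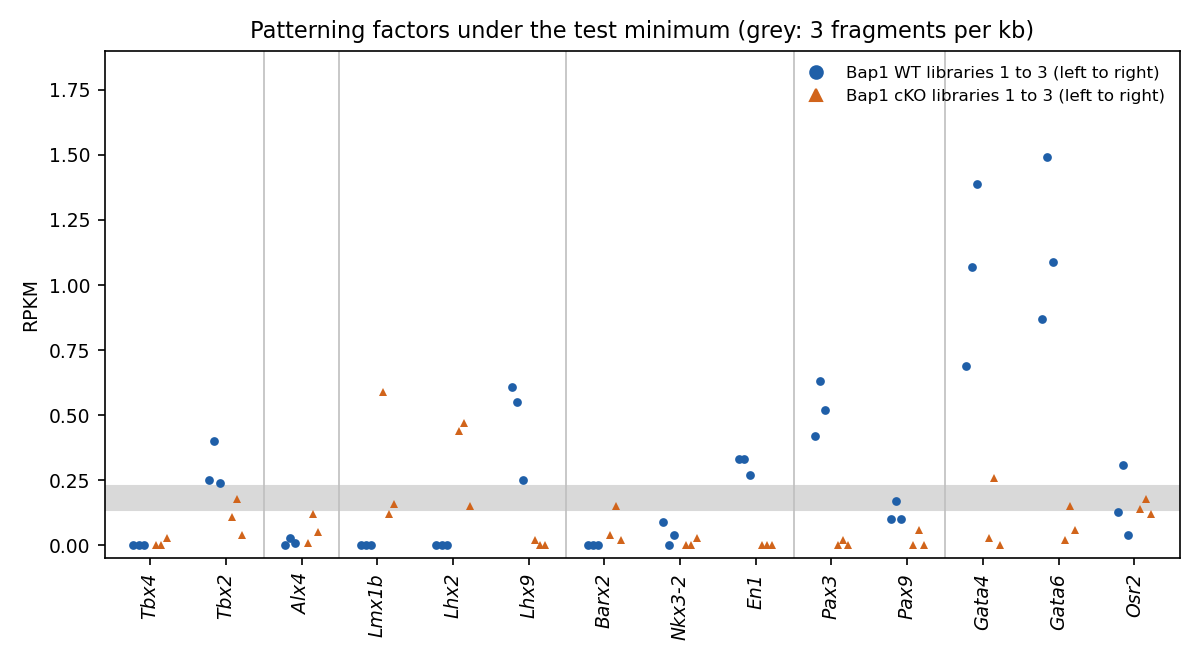
RPKM of the 14 factors that lay under the test's minimum and were above 0 in some library, on a linear axis. Circles are Bap1 WT and triangles Bap1 cKO libraries, grey lines divide families, and the grey band is the range of 3 fragments per kilobase over the libraries (0.135 to 0.229 RPKM). Gata4 and Gata6 reach 1.39 and 1.49 RPKM in WT, and Lmx1b and Lhx2 are above 0 in the cKO libraries only.

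The members varied more between cKO libraries than between WT libraries. The coefficient of variation was larger in cKO for 11 of the 12 tested members, with a median of 34.9% against 11% in WT. Over all tested genes the medians were 15.1% and 7.56%, and the coefficient was larger in cKO for 8875 of 12223. The exception was Msx2 (8.94% and 10.1%), and the widest were Meis2 (84.1%) and Msx1 (72.7%). The library that stood apart was not always the same: replicate 1 for Prrx1, replicate 2 for Meis2 and Msx1, and replicate 3 for Prrx2. On Shox2, cKO replicate 3 was 1.12 below the mean of the other two on the log2 scale, and on Prrx2 it was 0.97 above.

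The nearest tested genes on either side of the called members went both ways. The 2 nearest tested protein-coding genes on each side of the 9 called members make 36 neighbours, at distances of 1.2 to 1611 kb. Genes that overlap a member were left out, such as Rsrc1 at Shox2, which was not called. Of the 36, 12 were called in the member's direction, 7 in the opposite direction and 17 were not called. The 19 of 36 called are no more than the 61.2% of all tested genes. Around Tbx15, which rose, none of the 4 neighbours passed, and Wars2, 1.2 kb away, had a log2 difference of 0.12 ± 0.15 (limma adjusted p = 0.522). Beside Msx2, Ror2, a receptor for Wnt5a, rose from 0.447 to 32.4 RPKM, at a distance of 181 kb (log2 difference 4.53 ± 0.14, limma adjusted p = 3.03e-06). Ror2 reached the test's minimum through its cKO libraries alone. Next to Prrx2, the prostaglandin E synthase gene Ptges, 8.22 kb away, fell from 40 to 1.5 RPKM, with a limma adjusted p of 8.88e-05.

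Proteins that bind DNA together with the members, or bridge them to other factors, went both ways. In a list of 17 cofactors, 13 were tested, 5 rose, 6 fell and 2 did not pass, beside 34.7% higher and 26.5% lower over all tested genes. Pknox2, of the Meis-related Prep family, rose 10.1-fold from 4.43 ± 1.1 to 44.6 ± 11 RPKM, and its paralog Pknox1 fell 1.71-fold to 3.81 ± 0.65 RPKM. Meis3 fell 4-fold, in the direction of Meis1 and Meis2.

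The friend-of-GATA cofactors, which bind GATA proteins, were lower as well. Zfpm2 was at 8.44, 9.33 and 8.88 RPKM in WT and at 0.05, 0.35 and 0.31 RPKM in cKO, a log2 difference of −3.01 ± 0.15 with a limma adjusted p of 1.52e-05. It reached the test's minimum through its WT libraries alone, and could then hardly be called anything but lower. Zfpm1 fell 2.16-fold, a call lost without WT replicate 2 (0.0572) or 3 (0.0591). Among bridging proteins of LIM factors, Lmo1 rose from 0, 0 and 0.12 RPKM to 5.84, 6.82 and 4.1 RPKM. It reached the test's minimum through its cKO libraries alone, and could then hardly be called anything but higher. The single-stranded DNA binding proteins Ssbp4 and Ssbp3 rose 5.08-fold and 2.58-fold while Ssbp2 fell 1.88-fold. Lmo4, of the same family as Lmo1, rose 1.58-fold from 14.98, 16.98 and 16.18 RPKM to 25.36, 19.97 and 30.91 RPKM (limma adjusted p = 0.0144), a call lost without WT replicate 1 (0.0564).

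Relatives in the same families were mostly off. Of 42, 4 were tested, and all 4 were called higher, where 34.7% of all tested genes were. Pax8 rose from 0.19, 0.21 and 0.12 to 180.94, 243.21 and 124.15 RPKM. Osr1 rose 9.82-fold to 33.1 ± 9.63 RPKM, Gata2 4.33-fold to 6.29 ± 1.1 RPKM and Mga 1.67-fold. Osr1 is known for kidney and limb connective tissue and Pax8 for kidney and thyroid, and Pax8 is also on the list of kidney markers above. The minimum on the mean decides which relatives were tested. Pax8 reached it through its cKO libraries alone, and could then hardly be called anything but higher.

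Genes of limb signalling moved in both directions, with 3 of 19 tested higher, 8 lower and 8 not passing, of 36 in the list. The 11 of 19 called stand beside 61.2% of all tested genes. Wnt5a, a ligand of limb outgrowth, fell 2.91-fold to 7.05 ± 3.8 RPKM, Bmp4 fell 2.73-fold, the hedgehog effector Gli3 fell 2.55-fold and Twist2, a mesenchymal bHLH factor, fell 3.67-fold. Cyp26b1, which degrades retinoic acid, fell 2.69-fold, and 4.51-fold without cKO replicate 3, a call lost without WT replicate 1 (0.0575) or 3 (0.0689) or cKO replicate 1 (0.0607). Sox9, the cartilage factor, rose 6.66-fold (limma adjusted p = 0.00212), and Irx3 rose 2.09-fold. The joint ligand Gdf5 rose 4.72-fold, or 2.64-fold without cKO replicate 1. Its call was lost without WT replicate 1 (0.0848), 2 (0.0852) or 3 (0.0857). With a WT mean of 0.577 RPKM, Gdf5 reached the test's minimum through its cKO libraries alone. Shh and Fgf4 were listed at 0 in all 6 libraries, and Fgf8 reached at most 0.05 RPKM.

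**Figure D5:**
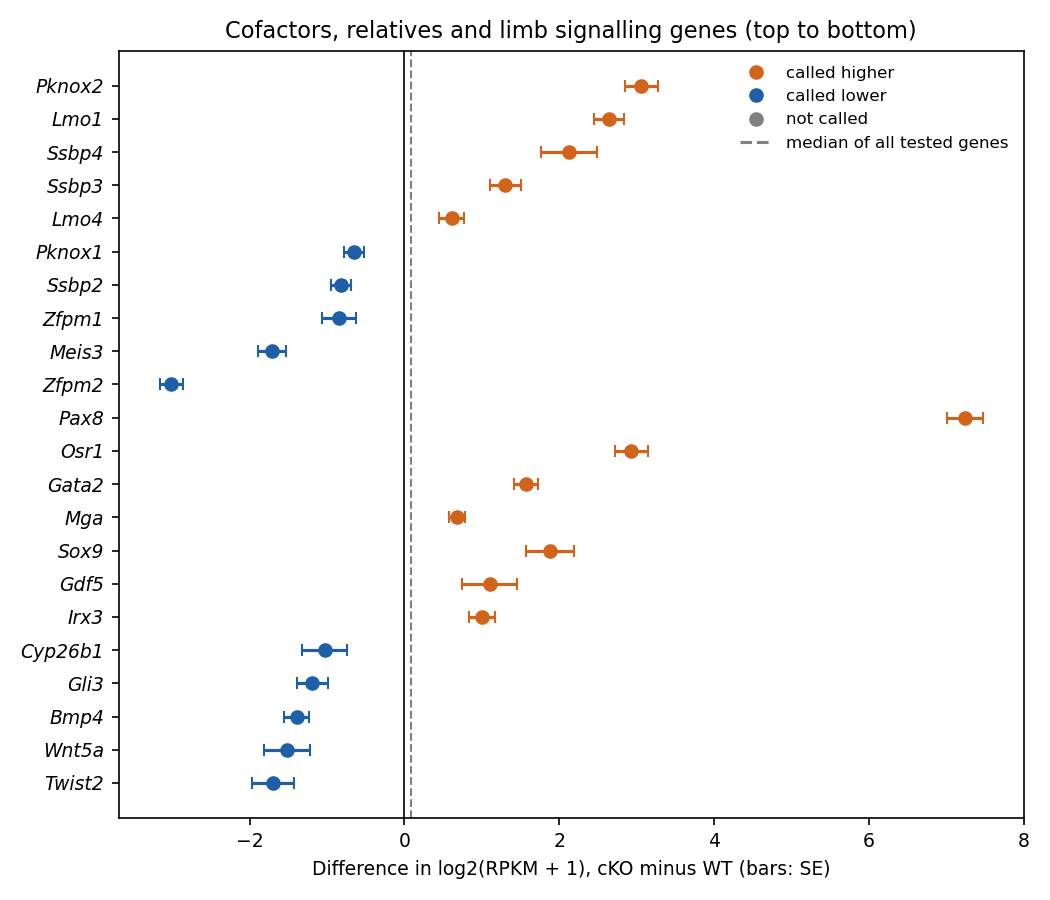
Difference in log2(RPKM + 1), cKO minus WT, with its SE, for up to 5 called genes per direction in the lists of cofactors (Pknox2 to Zfpm2), family relatives (Pax8 to Mga) and limb signalling genes (Sox9 to Twist2). The dashed line is the median of all tested genes (0.09), and Pax8 lies farthest out at 7.24.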

How the data were processed

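The authors deposited RPKM values, 1 column per library, and per the submitters' processing notes used cutadapt 2.8, STAR 2.7.1a, RSEM 1.3.1 and the build GRCm38; the annotation is not given in the sources used here. Per the labels, libraries were stranded and polyA-selected. Of 55471 identifiers, 55144 had a symbol in GENCODE M21, whose GRCm38 coordinates are given. Read counts were not used. Depth was estimated from the steps between low RPKM values of single-transcript genes of 800 to 3500 bp, less 150 bp. The share of such values that fell less than 0.2 from whole fragments was 83.1 to 93.3%, and 40% would do so by chance.

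The test was limma 3.58.1 in R 4.3.3 on log2(RPKM + 1), 2-sided, with a variance that follows the mean, genotype as the only term and all 6 libraries. It was tried on simulated data that, unlike these, had the same spread in both groups and few changed genes. Folds are ratios of mean RPKM, given where every library of the lower group was above its floor. The text names all 31 members, and up to 5 called genes per direction and list whose groups did not overlap. Shh, Fgf4, Fgf8, Fgf10, Umod, Calb1, Cdh1 and Epcam lie outside that rule and were chosen after their values were seen. Members and lists were chosen with earlier results of these data known, and 2 genes of the lists are not reported here and are not counted in them. Promoter windows came from RefSeq; they were cut to the bases before the gene start, and printed only where GENCODE places no part of the gene in them. Alternatives covered the pseudocount, minimum mean, scaling, variance prior, sample weights, replicate block, chromosome centring, thresholds and leaving out each library. Tables and plots were made with pandas 2.3.3, matplotlib 3.10.9 and Python 3.11.15.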

Additional observations from a re-analysis of the deposited data

How the results depend on the processing

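Of the 12 tested factors, 7 kept their direction and their side of the threshold in all 19 alternatives (Tbx15, Tbx18, Shox2, Pitx1, Meis2, Msx2 and Emx2); Tbx3, Meis1, Prrx1, Prrx2 and Msx1 did not. Leaving out a library moved Msx1 from −0.62 (cKO replicate 2) to 0.05 (cKO replicate 3) on the log2 scale. The 3 members called higher were 2 to 3 and the 6 called lower 5 to 7 when a library was left out; the cause of the other changes was not tested. Since more genes are then tested, 11 of 21 members tested were called lower with a minimum mean of 0.1 RPKM (22.8% of all genes) and 12 of 26 with none (16.8%). The members so added to the lower calls entered mainly through their WT libraries. These counts are therefore no support for a fall. Over all genes, 7476 were called, and 3131 with an absolute log2 difference of at least 1 as well. The same limit left 17 of the 26 genes called in the 3 pathway lists. Scaling by median of ratios moved the median of all genes from 0.09 to −0.01. Same-numbered libraries of the groups did not deviate together (r = −0.0166, 0.0505 and −0.0189 across genes). No shared shift was seen, but such values cannot tell whether the numbers mark a pairing. With the replicate number as a block, 2 members were called higher, 6 lower, and 3811 genes higher and 2938 lower in all. Of the 22 other genes named by rule, 18 kept their calls in every alternative that tested them, and Zfpm1, Lmo4, Gdf5 and Cyp26b1 did not. The on counts (12 in WT and 11 in cKO) used 1 RPKM. They were 14 and 12 at 0.5 RPKM, and 11 and 8 at 2 RPKM. At 2 RPKM Tbx18, Msx1 and Msx2 were not on in cKO, and Tbx3 was not on in WT. Which members are on in both groups thus depends on the cutoff. Levels under 0.135 to 0.229 RPKM rest on fewer than 3 fragments per kilobase.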
